A study of Canis lupus familiaris with 8 samples.

Results

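FOXP3+ cells were examined among TCRαβ+ T cells of canine blood. A cell was taken as a member of this population when it carried at least 1 UMI (unique molecular identifier, a count of 1 captured transcript) of FOXP3 and none of CD8A. Of 31909 cells kept, 1160 met this rule. The cells came from 4 healthy, routinely vaccinated Beagles. These were a female of 5 years (dog 1), males of 7 years (dogs 2 and 3) and a male of 9 years (dog 4). The cells were sorted by flow cytometry for the αβ T cell receptor, then frozen, and thawed before loading. Each dog gave 1 gene expression library by droplet-based 5' sequencing and 1 V(D)J library of receptor sequences, so the dog is the replicate and n = 4 throughout. The libraries held 26904346, 35661623, 32637367 and 32773374 UMIs for dogs 1 to 4, and kept cells had medians of 3599, 3931.5, 3795 and 3847 UMIs. Pairs of libraries shared between 87 and 120 cell barcodes. The dogs differed in age and sex together, and neither was tested.

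FOXP3 encodes the transcription factor that specifies regulatory T cells, which restrain other T cells and maintain tolerance to self. These cells are known for constitutive expression of CTLA4, an inhibitory receptor that competes for costimulatory ligands, and of IL2RA, the alpha chain of the high-affinity interleukin 2 receptor, and for low expression of IL7R, the interleukin 7 receptor. IKZF2 encodes Helios, a partner of FOXP3 in many regulatory cells, and CCR4 is a chemokine receptor for entry into skin and inflamed tissue.

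FOXP3+ cells made up 2.62% of kept cells in dog 1 (exact 95% Clopper-Pearson interval 2.26 to 3.02), 4.07% in dog 2 (3.66 to 4.51), 4.30% in dog 3 (3.87 to 4.77) and 3.41% in dog 4 (3.03 to 3.82), from 186, 344, 349 and 281 cells. Dog 1 was lowest, and its interval met none of the others. The mean was 3.60% ± 0.755 (SD, n = 4). These intervals cover counting error only. The share depended on depth, and FOXP3 was a sparse transcript. Thinning of all cells to 2000 UMIs, with shallower cells left out, gave 2.02% ± 0.465, and a minimum of 2 FOXP3 UMIs gave 0.98% ± 0.267. Of CD8A- cells under 2000 UMIs, 2.50% carried a FOXP3 UMI, against 11.5% of those with 6000 UMIs or more.

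A FOXP3 UMI was not limited to CD4+ cells. It was found in 4.84% ± 1.84 of CD4+ CD8A- cells (median 3955 UMIs) and in 4.65% ± 0.915 of cells without a CD4 or CD8A UMI (median 3496 UMIs). In CD8A+ CD4- cells, which should largely lack FOXP3 and were used as a measure of background, the share was 1.11% ± 0.867 (median 3726 UMIs). It was 0.145%, 1.33%, 2.19% and 0.789% in dogs 1 to 4. Thinned to 2000 UMIs, the shares were 2.51% ± 1.10, 2.94% ± 0.832 and 0.551% ± 0.511 in the same order, so that the background by this measure was lower than the level in CD8A- cells. Cells with UMIs of both GATA3, the master factor of Th2 cells, and LGALS3 (galectin-3) had FOXP3 most often among the kinds of CD8A- cell compared, in 11.9% ± 1.42 of cells (median 4769 UMIs) and in 5.43% ± 1.24 after thinning. The 132 cells with both FOXP3 and CD8A UMIs, 71 of them from dog 3, were left out by the rule.

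**Figure D1:**
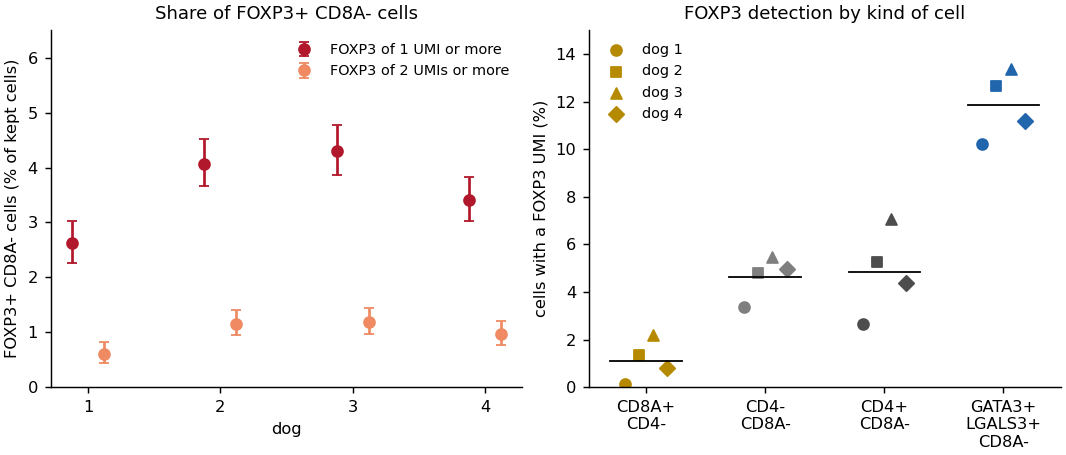
Share of cells with FOXP3 UMIs. Left, share of kept cells of each dog that had FOXP3 and no CD8A UMI, at a minimum of 1 or 2 FOXP3 UMIs, in percent with exact 95% intervals. Right, percent of cells of 4 kinds with a FOXP3 UMI, 1 point per dog and a line at the mean. Dog 1 had the lowest share at 2.62%, and CD8A+ CD4- cells lay lowest of the 4 kinds with a mean of 1.11%.

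Among the 1160 FOXP3+ cells, 843 had exactly 1 FOXP3 UMI, 185 had 2 and 132 had 3 or more, with a maximum of 11. A CD4 UMI was present in 622 of them (53.3% ± 2.37 over dogs) and absent from 538. At this depth, a CD4- cell and a CD4+ cell whose transcript was missed cannot be told apart. FOXP3 itself, which chose the cells, was at 289, 287, 298 and 315 CPM in dogs 1 to 4 (UMIs of the gene in 1000000 UMIs summed over the FOXP3+ cells of a dog). A GATA3 UMI was present in 52.2% ± 5.01 of FOXP3+ cells. A UMI of CCR7, the receptor for entry into lymph nodes, was present in 29.6%, 25.9%, 25.8% and 14.6% of FOXP3+ cells of dogs 1 to 4, lowest in dog 4.

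The other markers the study used for regulatory T cells, IKZF2, CTLA4 and CCR4, were counted in FOXP3+ cells. The study chose them on these same samples, so they are no independent check of the label. After thinning to 2000 UMIs, at least 1 of the 3 was found in 57.4%, 53.7%, 48.0% and 50.4% of FOXP3+ cells of dogs 1 to 4 (mean 52.4% ± 4.08). The mean was 21.4% ± 2.74 in CD4+ CD8A- FOXP3- cells of matched depth (from here on CD4+ FOXP3- cells), 29.6% ± 2.05 in GATA3+ LGALS3+ FOXP3- CD8A- cells (GATA3+ LGALS3+ FOXP3- cells) and 12.4% ± 1.82 in CD8A+ CD4- cells. The ranges of FOXP3+ cells and of each other kind of cell did not overlap. The remaining 47.6% ± 4.08 of FOXP3+ cells had none of the 3 markers at that depth.

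The markers were followed along the number of FOXP3 UMIs per cell, with 0 standing for CD4+ FOXP3- cells, so that cells just outside the rule (0 UMIs) and just inside it (1 UMI) can be seen side by side. After thinning, an IKZF2 UMI was found in 2.96% of cells with 0 FOXP3 UMIs, 15.3% with 1, 23.0% with 2 and 31.5% with 3 or more. CTLA4 was found in 18.4%, 36.2%, 52.6% and 54.9%, and CCR4 in 1.55%, 5.55%, 9.89% and 16.5%. CCR7 went the other way, with 26.3%, 15.3%, 13.1% and 8.15%. CD4, which chose the cells with 0 FOXP3 UMIs, was found in 67.2% of those, and in 36.5%, 32.0% and 29.6% of the others. There were 2320, 843, 185 and 132 cells in these groups, and their median depth before thinning was 4540, 4277, 4819 and 6936 UMIs. These values are a description, without a test.

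**Figure D2:**
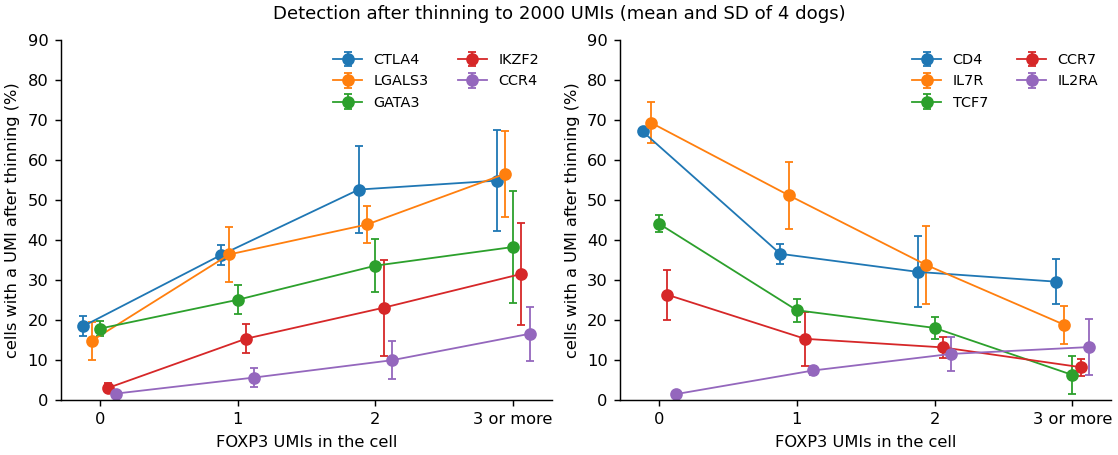
Percent of cells with a UMI of each gene after thinning to 2000 UMIs (vertical axis) against the number of FOXP3 UMIs in the cell before thinning (horizontal axis), with the mean and SD over 4 dogs. The left panel holds CTLA4, LGALS3, GATA3, IKZF2 and CCR4, whose means were higher in FOXP3+ cells than in cells with 0 FOXP3 UMIs. The right panel holds CD4, IL7R, TCF7 and CCR7, which were lower in FOXP3+ cells, and IL2RA, which was higher.

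To learn what sets FOXP3+ cells apart from other CD4+ T cells, UMIs were summed per dog over all FOXP3+ cells and over 2 CD4+ FOXP3- cells per FOXP3+ cell, drawn from the same dog at matched total UMIs (medians 4162, 4784.5, 4616 and 4277 against 4161.5, 4785, 4616 and 4277). FOXP3+ cells had more CTLA4, IKZF2, CCR4, IL2RA and TNFRSF18 in all dogs, more of the effector genes PRDM1 and IRF4 and of the homing genes CCR10 and ITGB1, and less of TCF7, CCR7 and IL7R of naive and resting T cells. In edgeR's quasi-likelihood test with the dog as a block and Benjamini-Hochberg adjustment, 1215 of 8185 genes tested (14.8%) had an adjusted p under 0.05, with 724 higher (8.85%) and 491 lower (6%) in FOXP3+ cells. For 12.1% of the genes tested, the 4 dogs of one group did not overlap with those of the other. The counts of called genes per list that follow stand beside these shares over all genes.

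IKZF2 was at 154, 144, 101 and 92.8 CPM in FOXP3+ cells of dogs 1 to 4, against 28.5, 21.3, 17.7 and 18.0 CPM in CD4+ FOXP3- cells. Every FOXP3+ value lay above every other, and dogs 1 and 2 were highest (log2 fold change 2.54, SE 0.11, adjusted p = 5.2e-14 by edgeR's quasi-likelihood test). CTLA4 was at 364, 256, 273 and 298 CPM against 120, 125, 113 and 136 CPM, again without overlap (log2 difference 1.24 ± 0.08 SE, adjusted p = 3.4e-11 in the same edgeR test). CCR4 was at 54.5, 83.6, 57.8 and 49.6 CPM against 8.39, 14.2, 10.7 and 6.23 CPM. Its groups stood apart too, with dog 2 highest in both (log2 fold change 2.61, SE 0.14, adjusted p = 4.0e-12, edgeR).

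IL2RA was at 65.7, 35.8, 42.8 and 48.9 CPM in FOXP3+ cells and at 14.0, 10.4, 8.68 and 6.97 CPM in CD4+ FOXP3- cells, without overlap (log2 fold change 2.23, SE 0.16). TNFRSF18, which encodes the costimulatory receptor GITR, was at 82.4, 55.2, 41.1 and 70.5 CPM against 17.3, 16.1, 19.1 and 21.6 CPM, a log2 fold change of 1.67 (SE 0.14). Both passed the test in every alternative run on this comparison. Of 12 genes in the list of regulatory T cell identity (FOXP3 left out), 6 were abundant enough to be tested, and 5 of these rose and none fell, with a median log2 fold change of 1.95 against -0.01 over all genes tested. IKZF2, CTLA4 and CCR4 were chosen by the study as markers on these same samples, so their direction is no independent evidence. GPR83, an orphan receptor, was at 16.2 ± 3.89 CPM against 18.6 ± 10.3 CPM and did not pass the test. TIGIT, IKZF4, LRRC32, RTKN2, ENTPD1 and NT5E fell under the filter on low counts.

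**Figure D3:**
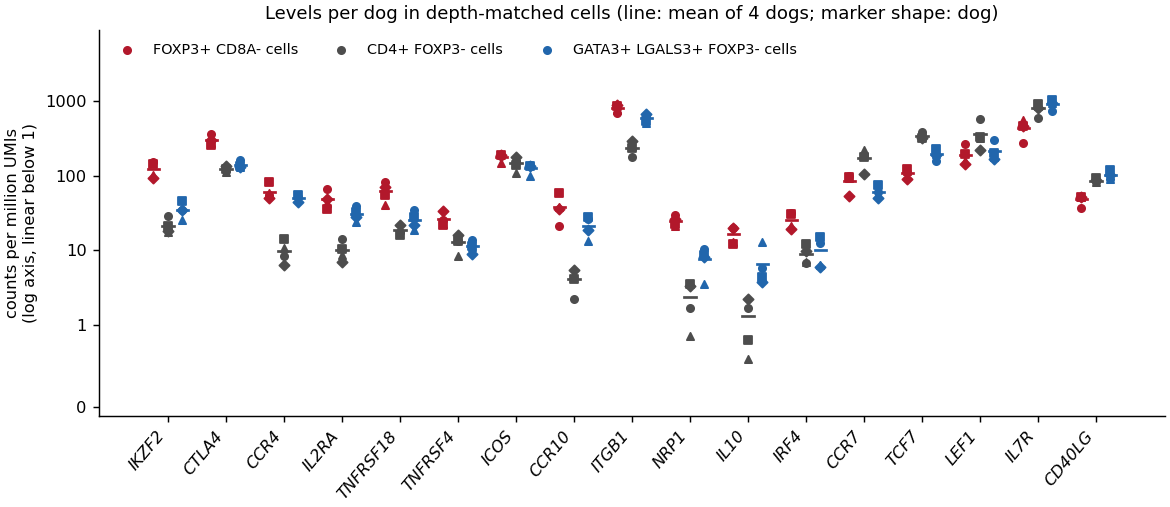
Level of 17 genes in CPM (vertical axis, linear near 0 and logarithmic above), 1 point per dog, in FOXP3+ cells, CD4+ FOXP3- cells and GATA3+ LGALS3+ FOXP3- cells. IKZF2 and CTLA4 in FOXP3+ cells lie above both other groups in all dogs, while IL7R lies under both.

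Of 17 genes of effector regulatory cells, 9 were abundant enough to be tested, and 7 of these rose and none fell (median log2 fold change 0.75, against -0.01 over all genes). IL10, a cytokine that suppresses inflammation, was rare, at 20.03, 12.1, 12.7 and 20.1 CPM in FOXP3+ cells and at 1.68, 0.820, 0.579 and 2.20 CPM in CD4+ FOXP3- cells. The groups did not overlap, but IL10 passed the filter on low counts through the FOXP3+ cells alone, with 91 UMIs there and 14 in the CD4+ FOXP3- cells, so its fold and its place among the 7 are given as a description (log2 fold change 3.62, SE 0.33). PRDM1, the transcription factor Blimp-1, was at 182 ± 22.2 CPM against 83.3 ± 30.3 CPM (log2 fold change 1.10). IRF4, which drives effector differentiation, was at 25.8 ± 6.22 against 8.90 ± 2.54 CPM (log2 fold change 1.47). ICOS, MAF, TNFRSF1B and TNFRSF4 (OX40) rose by 0.31 to 1.02 on the log2 scale, but edgeR's call was lost for MAF without dog 2 or dog 3 (adjusted p = 0.188 and 0.08) and likewise for ICOS (0.112 and 0.0557). With FOXP3+ cells that had a CD4 UMI alone, those of TNFRSF1B (adjusted p = 0.167, edgeR) and MAF (0.105) were lost. In the wider family of tumour necrosis factor receptors and their adaptors, 8 of 11 tested genes rose and none fell, with a median of 0.39, and without dog 2 or dog 3 it was 4 of 11 and 5 of 12.

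Several receptors that guide T cells to tissue differed as well. Of 18 homing genes tested, 7 rose (CCR10, CCR2, CCR4, CXCR6, ITGB1, S1PR1 and S1PR4) and 2 fell (CCR9 and ITGA4). Their median log2 fold change was 0.21. Over all genes tested, 8.85% were called higher and 6% lower, with a median of -0.01. CCR10, a receptor for a chemokine of skin, was at 21.2, 57.8, 37.6 and 36.0 CPM against 2.24, 4.10, 4.63 and 5.50 CPM. FOXP3+ cells lay above the others in all dogs, with dog 1 lowest in both groups (log2 fold change 3.22, SE 0.21). Only in FOXP3+ cells did CCR10 reach the filter on low counts in all dogs. Its fold and its place among the 7 are therefore given as a description. ITGB1, the beta-1 integrin chain, was at 695, 875, 766 and 888 CPM against 177, 232, 247 and 289 CPM, without overlap (log2 fold change 1.77, SE 0.06). CCR9, a receptor for entry into the small intestine, was at 4.45, 29.4, 72.9 and 39.6 CPM against 11.2, 96.2, 68.3 and 101 CPM. Dog 1 was low and dog 3 went against the other dogs, although the gene passed the test as lower (log2 fold change -0.91, SE 0.19, adjusted p = 0.0018, edgeR) and was not called without dog 2 (adjusted p = 0.083).

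Genes of naive and resting T cells were mostly lower. Of 12 tested, 7 fell (among them BACH2, CCR7, IL7R, LEF1, SATB1 and TCF7) and 3 rose (CD27, ID3 and S1PR1), with a median log2 fold change of -0.61, which was -0.21 without dog 1. The calls of TCF7, CCR7, IL7R, LEF1 and SATB1 held with any dog left out. Those of BACH2 (without dog 2 or 3), CD27 (dog 2 or 4) and ID3 (dog 1 or 2) did not, with edgeR's adjusted p between 0.0717 and 0.33, and ID3 was at -0.27 when FOXP3+ cells had at least 2 FOXP3 UMIs. TCF7, the transcription factor TCF-1 of naive and memory cells, was at 111, 123, 116 and 91.3 CPM against 384, 322, 355 and 323 CPM, and the groups stood far apart (log2 fold change -1.63, SE 0.08). IL7R was at 276, 460, 566 and 465 CPM in FOXP3+ cells against 598, 928, 862 and 818 CPM, also without overlap (log2 fold change -0.87, SE 0.07). CCR7 was at 99.1, 95.2, 93.1 and 53.2 CPM against 187, 176, 219 and 106 CPM, lowest in dog 4 in both groups (log2 fold change -1.02, SE 0.08).

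Of the genes of other T helper programs, GATA3 and LGALS3 of Th2 cells were higher. GATA3 was at 198, 203, 169 and 188 CPM in FOXP3+ cells against 103, 113, 115 and 99.7 CPM, and LGALS3 was at 258, 332, 364 and 328 CPM against 50.9, 127, 150 and 110 CPM. Neither gene overlapped between groups (log2 fold changes 0.80 and 1.54), and they were the 2 that rose among 4 Th2 genes tested, with none lower. Of 10 genes of the Th1 list, 4 were lower (CCR9, IFNG, IL12RB2 and IL18R1), STAT4 was higher and 5 were not called, with a median of -0.17, while 2 were lower without dog 2 or dog 4 and none was called without the dog as a block. TBX21, the master factor of Th1 cells, was at 19.97 ± 3.99 against 19.5 ± 11.5 CPM, and CXCR3 at 61.2 ± 15.8 against 69.0 ± 32.1 CPM, and neither passed the test.

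Interleukin 2 signalling genes went both ways. Of 16 tested, IL2RA, IL2RB and JAK3 rose, BCL2, IL2, IL7R and JAK1 fell, and the median was -0.10 (14.8% of all genes tested were called in either direction). The call of IL2 was lost without dog 2, 3 or 4 (adjusted p of 0.0539, 0.21 and 0.0757 by edgeR) and that of JAK1 without dog 2 (0.0606). Of 24 genes for proteins known to act with FOXP3 on chromatin or as its relatives and cofactors, IKZF3 rose and IKZF1, NFATC2 and STAT3 fell, with a median of -0.04, a share of calls near the 14.8% of all genes. STAT3 was not called without dog 2, 3 or 4 (adjusted p of 0.142, 0.135 and 0.157 by edgeR). CD40LG, the helper ligand for B cells, was at 36.7, 51.5, 52.1 and 52.5 CPM in FOXP3+ cells against 82.2, 91.9, 82.8 and 88.0 CPM, again without overlap, and fell by 0.81 on the log2 scale (SE 0.10).

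Apart from the lists, genes were named by size of fold among those of at least 20 CPM that changed in the same direction in all dogs. The 15 that rose most held CCR4, IKZF2, IL2RA, TNFRSF18 and ITGB1 from above, and CCR10, whose place is a description as said there. The largest fold was that of KRT27, a keratin gene, at 33.4, 19.98, 17.4 and 19.4 CPM against 1.12, 1.91, 0.868 and 0.367 CPM (log2 fold change 4.18, SE 0.32). NRP1, the surface protein neuropilin-1 used as a marker of murine regulatory cells, was at 30.1, 22.6, 20.8 and 26.6 CPM against 1.68, 3.55, 0.868 and 3.30 CPM (log2 fold change 3.31, SE 0.28). Both were rare in CD4+ FOXP3- cells of every dog, where their sums held 13 and 28 UMIs. Like IL10, they passed the filter on low counts through the FOXP3+ cells alone. Their folds, and the place of KRT27 as the largest, are therefore given as a description.

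The others were CDH23, a cadherin (log2 fold change 3.12), TBXAS1, the thromboxane synthase (2.20), RASGRP4, an activator of Ras (1.81), ADIRF (1.76), CNTNAP1 (1.74), ITGA2, a collagen-binding integrin chain (1.70), and LMNA, which encodes lamins of the nuclear envelope (1.64). ADIRF was uneven, at 217 ± 144 CPM in FOXP3+ cells. The 10 that fell most were RFLNB (-2.44), the chemokine CCL5 (-2.38), RGS10, a brake on G protein signalling (-2.04), PDE3B, a phosphodiesterase (-1.84), TCF7, CD38 (-1.46), TRAT1, an adaptor of the T cell receptor (-1.41), TMEM71 (-1.39), ATP10A (-1.32) and CD52 (-1.29). RGS10 was at 60.1, 36.3, 30.7 and 14.4 CPM against 287, 142, 114 and 57.2 CPM, with dog 4 lowest in both groups, so that its values in CD4+ FOXP3- cells of dog 4 overlapped with those in FOXP3+ cells of dog 1.

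Genes of cell division and of the interferon response moved with the same contrast, in which 8.85% of all genes tested were called higher and 6% lower. Of 11 cell cycle genes tested, 6 rose and none fell (4 without dog 2, with a median of 0.21 in place of 0.75), and MKI67, a marker of dividing cells, was at 204, 174, 86.8 and 93.5 CPM in FOXP3+ cells against 107, 51.4, 24.9 and 68.6 CPM. Each dog was higher in FOXP3+ cells, although dogs 3 and 4 lay under dog 1 of the other group (log2 fold change 1.24, SE 0.14). After thinning, 6.98% of FOXP3+ cells and 2.78% of CD4+ FOXP3- cells had an MKI67 UMI. Without cells carrying one, 730 genes were called in place of 1215, and 5 of 6 regulatory identity genes were higher. Of 10 interferon-stimulated genes, 6 rose and none fell, but none was called without the dog as a block. ISG15 was at 11.1, 49.9, 10.4 and 41.0 CPM against 9.50, 18.6, 1.16 and 17.2 CPM, high in dogs 2 and 4 in both groups.

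Markers of other cells gave the following. Of 6 B cell genes in the gene list, CD79A held nearly all UMIs, at 7848 CPM in FOXP3+ cells and 9520 CPM in CD4+ FOXP3- cells, and was called lower. PAX5 was at 0 in FOXP3+ cells, and the B cell gene MS4A1 was at 7.34 against 1.47 CPM, too low to be tested. Of 7 myeloid genes, 4 (CSF1R, FLT3, S100A12 and VCAN) were at 0 in FOXP3+ cells, while S100A8 was at 3951 against 2286 CPM and was called higher. Summed over the list, myeloid genes were at 3785, 3976, 4156 and 3905 CPM in FOXP3+ cells and at 1396, 2438, 2449 and 2865 CPM in CD4+ FOXP3- cells, against 3851, 3694, 4064 and 4011 CPM in GATA3+ LGALS3+ FOXP3- cells. Genes of NK and γδ T cells summed to 2.77 ± 2.96 CPM and those of platelets and erythroid cells to 0.360 ± 0.719 CPM in FOXP3+ cells, neither higher than in CD4+ FOXP3- cells. Whether the symbols CD79A and S100A8 stand for the B cell and myeloid transcripts in this canine annotation was not checked, so the levels of both, which make up nearly all of their lists, cannot be read as a share of B or myeloid cells. The part of stray or doublet RNA in the differences between groups was not tested.

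The number of genes called in this comparison depended on the fit and on the cells. It was 330 with no dog block, 657 when dog 2 was left out and 523 when only FOXP3+ cells with a CD4 UMI, which match the other group in this respect, were used, although the direction of all 1215 calls was kept in the first fit and of 1147 of the 1149 with a value in the last. Without the block, the calls of LEF1 (adjusted p = 0.0781), MKI67 (0.109), ISG15 (0.256) and CCR9 (0.441) were lost in edgeR's test, while 5 of 6 regulatory identity genes and 4 of 9 effector genes were called.

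Detection per cell was compared in thinned cells. After thinning to 2000 UMIs, IKZF2 was found in 20.4%, 24.0%, 14.7% and 14.7% of FOXP3+ cells of dogs 1 to 4 against 4.01%, 3.36%, 1.38% and 3.11% of CD4+ FOXP3- cells. CTLA4 was found in 41.0% ± 3.67 against 18.4% ± 2.58 and CCR4 in 7.63% ± 3.13 against 1.55% ± 0.511. All 3 were higher in 4 of 4 dogs, with p = 0.125 in the two-sided exact paired permutation test, the smallest that 4 dogs allow. ITGB1 was found in 52.4% against 21.4%, LGALS3 in 39.9% against 14.7%, TCF7 in 19.6% against 44.1% and IL7R in 44.3% against 69.4% of cells, each in the same direction in all dogs. In CD8A+ CD4- cells, an IKZF2 UMI was found in 6.79% and a CTLA4 UMI in 5.24%.

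Because GATA3 and LGALS3 were high in FOXP3+ cells, these were also set against GATA3+ LGALS3+ FOXP3- cells, 1 per FOXP3+ cell at matched total UMIs. Only the other group was chosen by GATA3 and LGALS3, while 52.2% ± 5.01 of FOXP3+ cells had a GATA3 UMI. IKZF2, CTLA4, TNFRSF18, IL2RA and IL10 were higher in FOXP3+ cells here too, and IL7R, CD40LG and IL2 were lower. In edgeR's quasi-likelihood test, 626 of 7936 genes (7.89%) had an adjusted p under 0.05, with 379 higher (4.78%) and 247 lower (3.11%). Both comparisons use the same FOXP3+ cells, so they are not independent. A fit with no dog block called 85 genes, and one that left out dog 3 called 401. IL2RA was not called without dog 3 and IL10 not without dog 2 or dog 4 (adjusted p of 0.0786, 0.0627 and 0.142 by edgeR).

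For 7.3% of the genes tested, the dogs of the groups did not overlap. IKZF2 was at 34.4, 46.0, 25.4 and 34.6 CPM in GATA3+ LGALS3+ FOXP3- cells of dogs 1 to 4, all under the lowest value of 92.8 CPM in FOXP3+ cells (log2 fold change 1.79, SE 0.11, adjusted p = 1.0e-13, edgeR). CTLA4 was at 163, 135, 129 and 130 CPM there, also without overlap (log2 fold change 1.10, SE 0.07). CCR4, in contrast, was at 51.6, 54.6, 49.0 and 44.9 CPM and overlapped with its level in FOXP3+ cells. The FOXP3+ cells were taken here with and without GATA3 UMIs, and CCR4 was higher in those with a GATA3 UMI than in the rest (below). The test was not passed for CCR4 (log2 fold change 0.35, SE 0.12, adjusted p = 0.067, edgeR), and after thinning it was found in 7.63% of FOXP3+ cells and 9.04% of GATA3+ LGALS3+ FOXP3- cells.

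IL7R was at 740, 1042, 962 and 943 CPM in GATA3+ LGALS3+ FOXP3- cells, above all FOXP3+ values (log2 fold change -1.03, SE 0.06). FGL2, a fibrinogen-like protein that regulatory cells can secrete, was at 163, 166, 208 and 226 CPM in FOXP3+ cells and at 435, 303, 392 and 489 CPM in the other group, and was thus the single member of the effector list that fell (log2 fold change -1.02, SE 0.06), with 6 of 9 higher. CCR7 was higher in FOXP3+ cells in this comparison (log2 fold change 0.49, SE 0.11), at 60.8, 75.7, 55.4 and 50.1 CPM in the other group, with which only the value of dog 4 overlapped, but it was not called without dog 3 (adjusted p = 0.0963, edgeR) or without the block (0.262). Only the other group was chosen by GATA3, and among FOXP3+ cells those with a GATA3 UMI had less CCR7 than those without (below). The part of this choice in the CCR7 difference was not tested. TCF7 was lower (log2 fold change -0.82, SE 0.08). Of 11 genes of naive and resting cells, 2 rose and 3 fell, with a median of 0.02, against -0.00 over all genes tested.

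The 10 genes that rose most were CDH23 (log2 fold change 2.53), KRT27 (2.03), IKZF2, NRP1 (1.75), TBXAS1 (1.68), ISG15 (1.52), SPC24, a kinetochore gene (1.40), IRF4 (1.38), TNFRSF18 (1.27) and FABP3, a fatty acid-binding protein (1.25). KRT27 and NRP1 were again rare in the other group, near the limit of the filter on low counts. Their folds and places are therefore given as a description. The 10 that fell most were CCDC3 (-1.96), RASSF2 (-1.26), TRAT1 (-1.16), IL7R, IL2 (-1.03), CD40LG (-1.03), DENND5A, EGLN3, PEAR1 and SVIL, of which PEAR1 was not called without dog 3 (adjusted p = 0.0811, edgeR). CCDC3, which encodes a secreted protein, was at 34.5, 43.6, 15.6 and 15.1 CPM in FOXP3+ cells and at 118, 127, 90.6 and 92.1 CPM in GATA3+ LGALS3+ FOXP3- cells, without overlap.

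**Figure D4:**
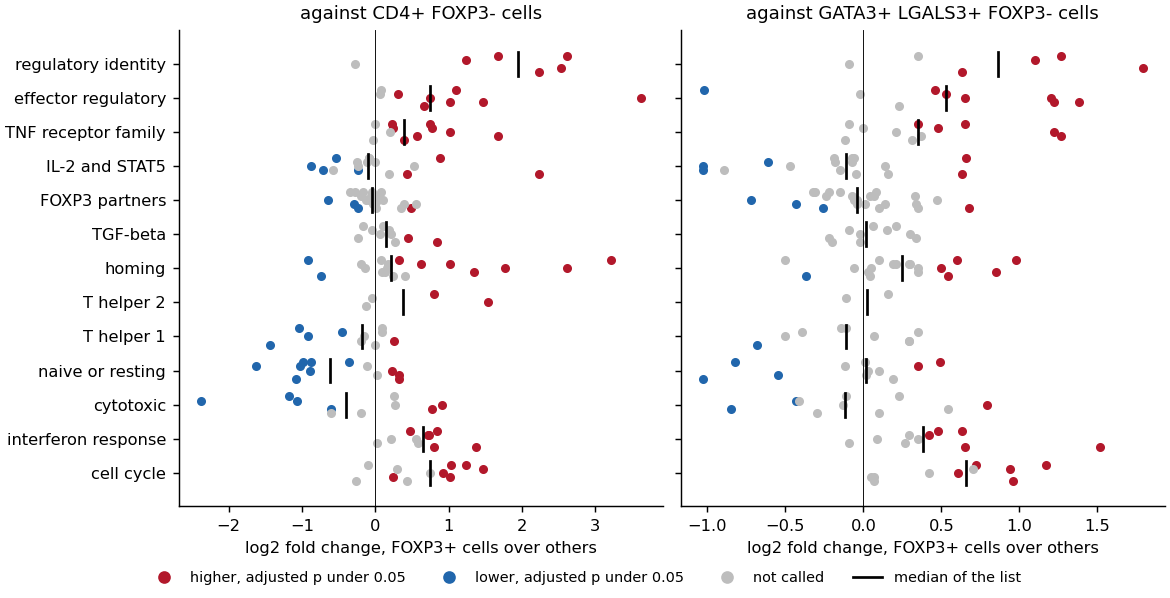
Log2 fold change of each tested gene of 13 gene lists (1 point per gene) in FOXP3+ cells against CD4+ FOXP3- cells and against GATA3+ LGALS3+ FOXP3- cells, with called genes marked and the median of the list drawn. Regulatory identity genes had medians of 1.95 and 0.86, and genes of naive and resting cells had medians of -0.61 and 0.02.

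FOXP3+ cells were not uniform. The 275 with a CCR7 UMI were compared with an equal number of FOXP3+ cells without one, matched in each dog for total UMIs. CCR7+ cells had more of the naive and resting genes LEF1, ID3, TCF7 and SATB1, and less of LGALS3, PRDM1, LMNA, CCR4 and IKZF2, of which CCR4 and IKZF2 lost their calls with a dog left out. By edgeR's quasi-likelihood test, 173 of 4558 genes (3.8%) were called, 82 higher (1.8%) and 91 lower (2%), and for 5.38% the dogs of the groups did not overlap. The split was 61 higher and 108 lower when counts were scaled by library size alone. Without the block 26 genes were called, and without dogs 2 and 4 in turn 85 and 110. Dog 4 contributed 41 CCR7+ cells and dog 1 55, against 89 and 90 in dogs 2 and 3.

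LEF1, a partner of TCF-1, was at 446, 370, 361 and 221 CPM in CCR7+ cells and at 214, 166, 114 and 78.9 CPM in CCR7- cells, without overlap (log2 fold change 1.33, SE 0.13). ID3, an inhibitor of helix-loop-helix factors, was at 322, 235, 200 and 181 CPM against 92.3, 64.5, 119 and 61.4 CPM, also without overlap (log2 fold change 1.47, SE 0.16). Of 10 naive and resting genes tested, 5 rose and none fell, with a median of 0.71 against 0.01 over all genes.

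CCR4 was at 25.6, 45.8, 35.4 and 13.3 CPM in CCR7+ cells and at 48.0, 87.4, 61.6 and 78.9 CPM in CCR7- cells. No dog of the first group reached the lowest of the second (log2 fold change -1.05, SE 0.26, adjusted p = 0.0036, edgeR), but the call was lost without dog 2 or dog 4 (adjusted p = 0.0698 and 0.09). Only in CCR7- cells did CCR4 reach the filter on low counts in all dogs, so its fold is given as a description. IKZF2 was at 98.8, 102, 91.9 and 53.0 CPM against 170, 162, 109 and 114 CPM (log2 fold change -0.60, SE 0.17, adjusted p = 0.0196, edgeR). This call was lost without dog 1, 2 or 4 (0.123, 0.208 and 0.133 by edgeR), and in pairs of cells within 5% of each other in total UMIs (0.07). SATB1 was not called without dog 1 or dog 2 (0.0593 and 0.0698). CTLA4 was at 273 ± 56.0 against 331 ± 45.7 CPM and IL2RA at 54.2 ± 11.7 against 44.0 ± 20.4 CPM, and neither passed the test. FOXP3, which all these cells had, was at 273 ± 30.0 CPM in CCR7+ and at 318 ± 32.2 CPM in CCR7- cells, given as a description.

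Of 15 homing genes tested, CXCR4 rose and 5 fell, among them CCR10, CCR2 and ITGB1 beside CCR4, but 2 fell without dog 2, 3 or 4. MKI67 was at 128, 89.4, 123 and 88.3 CPM in CCR7+ cells against 354, 208, 56.9 and 96.5 CPM. It was lower in 3 dogs and higher in dog 3, and its call (log2 fold change -0.62, SE 0.17) was lost without dog 1, 2 or 4 and with another draw of the matched cells (adjusted p of 0.678, 0.706, 0.073 and 0.0832 by edgeR). Without cells with more than 1 TRB its log2 fold change was -0.18 (adjusted p = 0.785, edgeR). Of the markers of other cells, CD79A was higher in CCR7+ cells, at 8972 ± 646 against 7538 ± 602 CPM, and S100A8 lower, at 2947 ± 375 against 4112 ± 515 CPM (log2 fold changes 0.28 and -0.44), and their part in the differences was not tested. CNKSR3, a scaffold of Ras signalling, had the largest rise of those named, at 47.5 ± 6.05 against 9.60 ± 1.94 CPM (log2 fold change 2.22, SE 0.39). It passed the filter on low counts through the CCR7+ cells alone, with 66 UMIs there and 14 in the CCR7- cells. Its fold and its rank are thus a description.

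The same FOXP3+ cells were also divided by GATA3. GATA3+ cells had more CCR4, IKZF2, CTLA4, PRDM1, ITGB1 and LGALS3 than GATA3- cells, and less CCR7, TCF7 and IL7R in all dogs and less LEF1 in all but dog 4. Matching was incomplete here, since GATA3+ cells were deeper, with medians of 5028, 4703, 5325 and 4552.5 UMIs against 3707, 4062.5, 4406.5 and 3892. By edgeR's quasi-likelihood test, 333 of 6068 genes (5.49%) were called, 175 higher (2.88%) and 158 lower (2.6%), a split that moved to 238 and 135 with scaling by library size alone. The dogs of the groups did not overlap for 7.63% of genes. In pairs of cells within 5% of each other in total UMIs, 209 genes were called, 180 of them among the 333, and 322 of 324 calls with a value kept their direction. With no dog block 57 genes were called, and 128 and 122 were called when dogs 2 and 3 were left out in turn.

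CCR4 was at 58.5, 117, 86.2 and 64.0 CPM in GATA3+ cells and at 48.9, 23.3, 22.8 and 20.2 CPM in GATA3- cells. The groups did not overlap, and the gap was smallest in dog 1 (log2 fold change 1.59, SE 0.21, and 1.44, SE 0.23, in the closer pairs). IKZF2 was at 181, 166, 133 and 125 CPM against 114, 96.4, 60.4 and 44.0 CPM, without overlap (log2 fold change 0.94, SE 0.14). CTLA4 was at 396, 297, 297 and 353 CPM against 318, 225, 235 and 259 CPM, higher in each dog but with overlap, since dog 1 was high in both (log2 fold change 0.34, SE 0.10, adjusted p = 0.025, edgeR). The call of CTLA4 was lost without dog 2, 3 or 4 (0.119, 0.14 and 0.104 by edgeR), and that of PRDM1 without dog 3 (0.482).

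Of 11 naive and resting genes, 7 fell and none rose, with a median of -0.61 against -0.01 over all genes, and 5 fell in the closer pairs, with a median of -0.40. TCF7 was at 73.6, 100, 78.8 and 87.5 CPM in GATA3+ cells against 166, 215, 164 and 103 CPM, without overlap and nearest in dog 4 (log2 fold change -0.96, SE 0.14). RGS10 had the largest fall of those named, at 20.8, 19.8, 7.36 and 6.25 CPM against 117, 64.8, 61.7 and 25.7 CPM (log2 fold change -2.38, SE 0.26). Only in GATA3- cells did RGS10 reach the filter on low counts in all dogs, so its fold and rank are given as a description. NRP1 and CCR10 were higher by 1.25 and 1.64 on the log2 scale, NRP1 not without dog 2, 3 or 4 (adjusted p of 0.0618, 0.294 and 0.0798 by edgeR). MKI67 was at 296, 60.9, 146 and 67.2 CPM in GATA3+ cells and at 70.6, 78.2, 8.05 and 36.7 CPM in GATA3- cells, with dog 2 against the others (log2 fold change 1.49, SE 0.25), and in the closer pairs it was not called (0.44, SE 0.26). Of the markers of other cells, S100A8 was higher in GATA3+ cells, at 4306 ± 392 against 3187 ± 287 CPM, and CD79A lower, at 7237 ± 440 against 9273 ± 346 CPM (log2 fold changes 0.39 and -0.40), and their part in the differences was not tested. Of 9 interferon-stimulated genes, IFI44, ISG15 and MX2 were higher and none was lower, but 1 was called without dog 2 and none without the dog as a block.

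The receptors of FOXP3+ cells were read from the V(D)J libraries. At least 1 receptor chain was found in 86.0%, 86.6%, 90.0% and 87.5% of FOXP3+ cells of dogs 1 to 4, against 85.5%, 84.7%, 88.1% and 84.7% of matched CD4+ FOXP3- cells. Exactly 1 TRA (alpha) and 1 TRB (beta) rearrangement was found in 634 FOXP3+ cells, and these fell into 593 clonotypes, defined by V gene, J gene and junction of both chains within a dog. Of the clonotypes, 24 held 2 or more FOXP3+ cells, 65 cells in all, and the largest held 9.

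The share of FOXP3+ cells whose clonotype was found in another cell of the same dog was 7.41%, 17.5%, 30.0% and 22.0% in dogs 1 to 4. It was 3.80%, 34.2%, 27.0% and 56.1% in CD4+ FOXP3- cells, so that 2 dogs were higher and 2 lower (exact paired permutation test, two-sided, p = 0.5). The mean difference was -11.1 percentage points, and it was -3.40 without dog 4 and -16.0 without dog 1. In GATA3+ LGALS3+ FOXP3- cells it was 20.9%, 35.8%, 46.4% and 38.9%, higher than in FOXP3+ cells in all dogs (exact permutation test p = 0.125, the smallest possible). In CD8A+ CD4- cells the mean was 63.2% ± 11.6, against 19.2% ± 9.43 in FOXP3+ cells, and the ranges did not overlap.

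**Figure D5:**
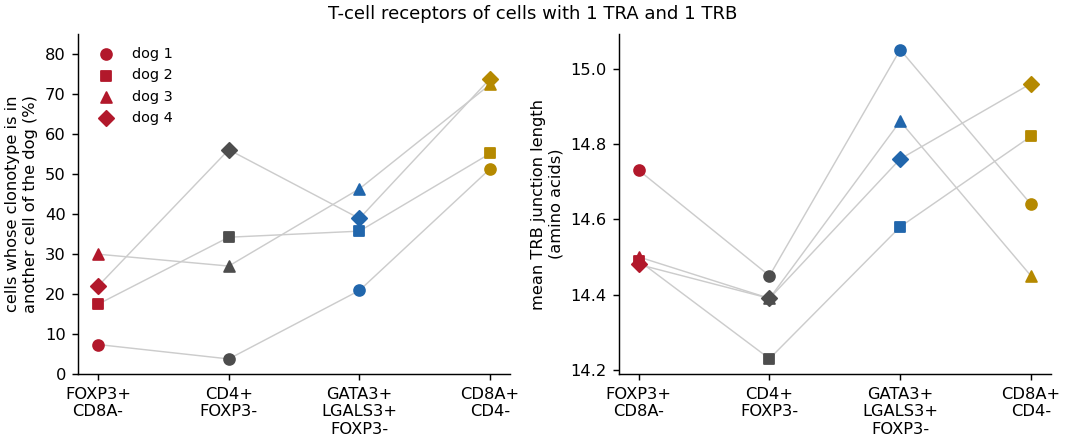
Receptors of 4 kinds of cell, 1 point per dog. One panel shows the percent of cells with 1 TRA and 1 TRB whose clonotype was in another cell of the dog, the other the mean TRB junction length in amino acids. FOXP3+ cells had a mean expanded share of 19.2%, the lowest of the 4 means, but lay above CD4+ FOXP3- cells in dogs 1 and 3. Their mean junction length was 14.55 amino acids.

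Clonotypes that held several FOXP3+ cells were of different kinds. Those found in FOXP3+ cells alone are represented here by 1 clonotype per dog, the one with most FOXP3+ cells. The largest clonotype of all is shown beside them because most of its cells were outside the population. The nucleotide sequence of each junction is given 5' to 3' with the conserved first and last codon in lower case and the part between them in capitals.
dog 1, TRAV9-8/TRAJ3: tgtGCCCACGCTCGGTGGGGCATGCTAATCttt
dog 1, TRBV1/TRBJ1-1: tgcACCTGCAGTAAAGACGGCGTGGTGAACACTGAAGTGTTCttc
dog 2, TRAV9-5/TRAJ30: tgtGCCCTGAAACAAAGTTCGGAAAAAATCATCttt
dog 2, TRBV16/TRBJ1-6: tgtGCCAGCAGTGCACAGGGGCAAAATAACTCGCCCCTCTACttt
dog 3, TRAV43-1/TRAJ34: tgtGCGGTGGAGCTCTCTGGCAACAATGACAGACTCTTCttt
dog 3, TRBV16/TRBJ1-3: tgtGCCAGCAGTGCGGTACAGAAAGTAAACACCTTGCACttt
dog 4, TRAV9-8/TRAJ27: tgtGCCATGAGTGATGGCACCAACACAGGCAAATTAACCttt
dog 4, TRBV16/TRBJ1-1: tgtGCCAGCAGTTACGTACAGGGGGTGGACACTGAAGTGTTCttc
dog 3, largest, TRAV29/TRAJ54: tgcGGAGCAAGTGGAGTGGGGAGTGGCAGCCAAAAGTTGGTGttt
dog 3, largest, TRBV7/TRBJ2-1: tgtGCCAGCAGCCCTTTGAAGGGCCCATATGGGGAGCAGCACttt

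The clonotypes of dogs 1, 2 and 4 were found in 2 FOXP3+ cells each, with 5, 5 and 4 FOXP3 UMIs over those cells, and that of dog 3 in 3 cells with 3 FOXP3 UMIs. The largest clonotype, in dog 3, had 84 cells. Of these, 9 were FOXP3+ cells by the rule (11 FOXP3 UMIs in all), 32 had a CD8A UMI and 40 had neither FOXP3, CD4 nor CD8A. Whether any of the 32 also had a FOXP3 UMI was not counted. None of its 9 FOXP3+ cells had a CD4 UMI.

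In all, 128 of the 634 FOXP3+ cells (20.2%) shared their clonotype with a cell outside the population, 4, 30, 63 and 31 in dogs 1 to 4, and 46 shared it with a CD8A+ cell, of which 34 were in dog 3. The FOXP3 and marker UMIs were listed by this sharing. Of 497 FOXP3+ cells whose clonotype was found in no other cell, 34.4% had at least 2 FOXP3 UMIs and 77.3% had a UMI of IKZF2, CTLA4 or CCR4 (not thinned). Of 82 that shared a clonotype with other cells but none with CD8A, the shares were 12.2% and 62.2%, and of 46 that shared one with a CD8A+ cell they were 19.6% and 41.3%. Median UMIs were 4675, 4787 and 5189 in these classes, highest in the last. These shares are a description over cells pooled from 4 dogs.

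The TRB junction of FOXP3+ cells was on average 14.7, 14.5, 14.5 and 14.5 amino acids long in dogs 1 to 4, against 14.5, 14.2, 14.4 and 14.4 in CD4+ FOXP3- cells. The difference of 0.186 amino acids was positive in 4 of 4 dogs (exact permutation test p = 0.125, the smallest possible), and the junctions of GATA3+ LGALS3+ FOXP3- cells were longer still, with a mean of 14.81. The TRA junction had a mean of 13.4 against 13.5 amino acids, with 1 dog higher and 3 lower (exact permutation test p = 0.625). More than 1 TRB, which can mark a doublet, was seen in 4.58% of FOXP3+ cells with a receptor chain, 7.74% of matched CD4+ FOXP3- cells and 3.32% of all CD4+ FOXP3- cells.

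Use of V and J genes was compared over clonotypes, each counted once. Of 90 genes tested with edgeR's quasi-likelihood test, 1 (1.11%) was called, and 6 had an unadjusted p under 0.05. TRAV9-11 was used by 6.25%, 6.22%, 8.90% and 5.52% of the clonotypes of FOXP3+ cells in dogs 1 to 4 and by 1.63%, 2.82%, 3.93% and 1.65% of those of CD4+ FOXP3- cells. The groups did not overlap (log2 fold change 1.33, adjusted p = 0.0100 by edgeR's test). The call rests on 41 and 28 clonotypes and was lost when any 1 dog was left out, with the smallest adjusted p of edgeR's test between 0.0523 and 0.151. The second gene by p was TRBV28, at 3.04% ± 0.992 against 7.42% ± 2.46, which was not called (adjusted p = 0.134, edgeR).

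In MAIT-like cells of the dog, TRAV9-11 is joined to TRAJ28. The joining genes of TRAV9-11 were therefore looked at, a choice made after the call was seen. The 41 clonotypes of FOXP3+ cells used 25 different TRAJ genes, with TRAJ28 in 4, and 15 different TRBV genes. In CD8A+ CD4- cells, 250 of 373 TRAV9-11 clonotypes used TRAJ28. Of the 43 FOXP3+ cells with TRAV9-11, 38 had a UMI of IKZF2, CTLA4 or CCR4, 18 had at least 2 FOXP3 UMIs and 28 had a GATA3 UMI (88.4%, 41.9% and 65.1%). Of all 634 FOXP3+ cells with 1 TRA and 1 TRB, these among them, the shares were 72.9%, 30.4% and 53.2%, and the differences were not tested. The TRA junctions of the TRAV9-11 cell with most FOXP3 UMIs in each dog (2, 2, 3 and 5) are given to show how they differ in length and sequence, with capitals as above.
dog 1, TRAV9-11/TRAJ28: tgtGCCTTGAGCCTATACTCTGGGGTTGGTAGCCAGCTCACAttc
dog 2, TRAV9-11/TRAJ44: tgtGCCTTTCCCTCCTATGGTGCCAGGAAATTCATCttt
dog 3, TRAV9-11/TRAJ16: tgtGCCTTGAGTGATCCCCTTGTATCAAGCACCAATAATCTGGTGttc
dog 4, TRAV9-11/TRAJ54: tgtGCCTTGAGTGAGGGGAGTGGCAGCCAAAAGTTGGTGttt
These junctions code for 15, 13, 16 and 14 amino acids, and their TRB chains used TRBV10, TRBV3-1, TRBV4-4 and TRBV7.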

How the data were processed

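Gene expression was measured by droplet-based 5' sequencing and receptors by V(D)J enrichment in sorted TCRαβ+ T cells of 4 dogs. The authors made both with Cell Ranger (5.0.1 in the submitters' processing notes) from reads aligned to CanFam 3.1, and deposited UMI counts by gene and barcode with no normalization. The deposited receptor lists give V and J genes, UMI counts and junction sequences of productive rearrangements, from which junction lengths were taken. For the receptor gene reference, the sources used here give no name. Dog 1 came with 27980 gene names for 20257 rows of counts, so the list of dogs 2 to 4 was used. With it, log totals per gene correlated with the other dogs at 0.991, 0.990 and 0.989.

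Cells were kept if they had between 500 and 20000 UMIs, of which 10% or less were from 13 mitochondrial genes (7096, 8454, 8109 and 8250). Doublets had been gated by the study in sorting. No caller was run, and cells with more than 1 TRB were left out as an alternative. The members and gene lists were chosen with earlier results of these data known. Comparison cells were drawn within each dog at matched total UMIs (seed 1). Counts were summed per dog and group and tested with edgeR 4.0.16 in R 4.3.3 (TMM, filter on low counts, quasi-likelihood test, dog as a block), with Benjamini-Hochberg adjustment over all genes tested. The dog pairs the samples because both sums come from the same library. The test was first run on simulated data. Genes that define a group were not tested. Named genes were list members and, of genes with at least 20 CPM in the higher group, the same direction in all 4 dogs and adjusted p under 0.05, those with the largest folds. The values of 2 list genes are not reported here, although the list counts hold them. Single values were compared by a two-sided exact paired permutation test over dogs. Alternatives left out each dog, the block, TMM or the filter, changed the cells, or used DESeq2 1.42.0. Figures and other values were made in Python 3.11.15.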

Additional observations from a re-analysis of the deposited data

Results flagged for a closer look

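Among 58 sets of 4 values, 1 per dog, that were examined for FOXP3+ cells, 4 held a dog far from the other 3, where chance alone is expected to mark about 1 in 20. The mean TRB junction length was 14.73 amino acids in dog 1 and 14.48 to 14.5 in the others. The share of thinned FOXP3+ cells with a UMI of TIGIT, an inhibitory receptor, was 1.235% in dog 1 and 1.835% to 1.938% in the others, but after thinning to 3000 UMIs dog 1 was the highest at 3.623%, against 1.742% to 2.091%. The keratin gene KRT27 was at 33.39 CPM in dog 1 and at 17.35 to 19.98 CPM in the others. ADIRF was at 430 CPM in dog 2 and at 115.8 to 168.3 CPM in the others. The causes were not tested.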

How the results depend on the processing

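The dog pairs both groups of each comparison, and the fit without this replicate block called 330 genes in FOXP3+ against CD4+ FOXP3- cells (1215 with it), 85 against GATA3+ LGALS3+ FOXP3- cells (626), 26 between CCR7+ and CCR7- cells (173) and 57 between GATA3+ and GATA3- cells (333). DESeq2 called 407, 176, 46 and 115. Leaving out 1 dog gave 657 to 1117, 401 to 560, 85 to 137 and 122 to 346. In these fits every called gene with a value kept its direction. In the first comparison, 1840 genes were called with all CD4+ FOXP3- cells unmatched, 523 with FOXP3+ cells with a CD4 UMI alone and, in a fit chosen after seeing the data, 730 without cells with an MKI67 UMI. Pairs within 5% of total UMIs, also chosen after seeing the data, gave 209 calls for GATA3+ against GATA3- cells. Scaling by library size alone took the higher calls from 47.4% to 36.1% for CCR7 and from 52.6% to 63.8% for GATA3. Without the block, 29 of 84 named genes with a value lost a call in the first comparison, 8 of 27 in the second, 19 of 32 for CCR7 and 17 of 34 for GATA3, and with a dog left out at most 13, 3, 9 and 11 did. Of called genes, ID3 (-0.27 at 2 or more FOXP3 UMIs) and CTSW (-0.11 against FOXP3- CD8A- cells whether or not they had a CD4 UMI) changed sign in the first comparison. Of genes not called there, TBX21 (0.00) was at -0.02 to -0.18 in 6 settings (-0.02, -0.03, -0.04, -0.18, -0.02 and -0.11) and from -0.13 (without dog 1) to 0.22 with a dog left out. GZMB was at -0.52 against the same wider set of FOXP3- cells, CXCR3 ran from -0.43 to 0.02 (without dog 2) and CD74 from -0.04 (without dog 1) to 0.08. The share of FOXP3+ cells was 0.98% at 2 or more UMIs and 2.02% after thinning, and 3.37% to 3.93% with a dog left out. Of the receptor differences from CD4+ FOXP3- cells, that in cells with 1 TRA and 1 TRB, 0.786 percentage points, ran from -1.77 to 3.02 with a dog left out (-0.696 without dog 2), that in more than 1 TRA, 0.36 (2.31 against all cells unmatched), from -0.859 to 1.11, and that in TRA length, -0.105 amino acids, from -0.197 to 0.00735. That in more than 1 TRB, -3.16, was 1.26 against all cells unmatched. V and J genes gave 1 call and 0 with any dog left out. Causes were not tested. Depth limits every statement on absence, since most FOXP3+ cells carry 1 FOXP3 UMI, and 4 dogs cannot give an exact p under 0.125.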

Other observations

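Other gene groups were counted in FOXP3+ against CD4+ FOXP3- cells, where 8.85% of all genes tested were called higher and 6% lower, with a median log2 fold change of -0.01. Of 10 cytotoxic genes tested, CST7 and CTSW rose and CCL4, CCL5, GZMK and KLRK1 fell, with a median log2 fold change of -0.39. The calls of CCL4 (without dog 4, adjusted p = 0.177) and KLRK1 (dog 2 or 4, 0.107 and 0.161) were lost in edgeR's test with a dog left out, and the median was -0.07 without dog 4. GZMK, granzyme K, was at 5.57, 49.4, 115 and 64.7 CPM in FOXP3+ cells and at 44.7, 129, 169 and 150 CPM in CD4+ FOXP3- cells, lower in each dog, with overlap between dogs (log2 fold change -1.07, SE 0.14). GZMB, granzyme B, was at 11.3 ± 5.09 against 9.99 ± 7.24 CPM and did not pass edgeR's test. CTSW was at -0.11 on the log2 scale against all FOXP3- CD8A- cells, with or without a CD4 UMI. The list summed to 288 ± 77.0 CPM in FOXP3+ cells.

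Of 15 genes of T cell receptor signalling and costimulation, CD3D and CD44 rose and CD38, CD40LG, CD69 and LAT fell, with a median of 0.04, and CD3D was not called without dog 1, 2 or 3 (adjusted p of 0.0575, 0.155 and 0.115 by edgeR). CD28, the main costimulatory receptor, was at 142 ± 19.5 against 130 ± 21.7 CPM, and PDCD1, the inhibitory receptor PD-1, was at 17.6 ± 9.51 against 12.6 ± 2.44 CPM, and neither passed the test. Of 10 genes of transforming growth factor beta signalling, SMAD2 and TGFBR3 rose and none fell, a share not far from that of all genes. SMAD2 was not called without dog 2 or dog 4 (0.103 and 0.0776 by edgeR's adjusted p) and was at 0.06 on the log2 scale with at least 2 FOXP3 UMIs (0.911). TGFBR3 was not called with FOXP3+ cells that had a CD4 UMI alone (0.0604), nor against FOXP3- CD8A- cells with or without a CD4 UMI (0.0546). None of 5 MHC class II genes was called by edgeR's quasi-likelihood test, and CD74, the invariant chain, was at 4565 CPM in FOXP3+ and 4534 CPM in CD4+ FOXP3- cells.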
